A study of Homo sapiens with 18 samples.

Results

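Silencing of PBRM1 and silencing of IRF1 were compared gene by gene in BT-549 cells, a human triple-negative breast cancer (TNBC) line. The measure was the difference of effects, that is the log2 fold of PBRM1shRNA cells against their control cells minus the log2 fold of IRF1shRNA cells against theirs. It used 12 of the 18 RNA-seq libraries of the series (4 groups of 3) and 12232 of the 25331 genes listed in both expression tables, those with a TPM (a length-corrected level whose total is equal in all libraries) of at least 1 in at least 3 columns of each table. Short noncoding RNAs were removed by their symbols and TPM was rescaled to the original total before any fold was formed. The genes were then sorted by bounds on both folds into PBRM1-only, IRF1-only and opposite responses, and responses in the same direction to both hairpins.

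PBRM1 carries several bromodomains, which bind acetylated histones, and is a subunit of PBAF, a SWI/SNF complex that slides or evicts nucleosomes. IRF1 is a DNA-binding transcription factor of the interferon (IFN) response. It recognizes the IFN-stimulated response element (ISRE), a repeated GAAA motif found ahead of many antiviral genes. In many tumor cells IFN-stimulated genes are active without added IFN, and both proteins have been tied to that state.

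The first experiment held BT-549 cells stably expressing a PBRM1 shRNA (a short hairpin RNA that directs degradation of its target transcript) and control-shRNA cells. The second held BT-549 cells stably expressing an IRF1 shRNA and control-shRNA cells of its own. The labels give a stable control shRNA for both control groups, but the control columns of the PBRM1 table name the cells without a hairpin, unlike those of the IRF1 table, and were assigned to that group as the table's remaining columns. All 4 groups were selected with puromycin and grown in RPMI 1640 medium with serum and insulin, without added IFN as far as the labels state, and total RNA came from triplicate cultures. Each gene was represented by 1 hairpin group in 1 line, so effects of the targeted gene and of the hairpin itself cannot be told apart, and p-values measure the spread among cultures of that line. The 2 experiments were deposited as separately normalized tables, so differences between the experiments and between the hairpins cannot be told apart either. In bulk RNA, fewer cells of a type and less RNA per cell cannot be told apart.

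Libraries of a group correlated across genes at 0.997 to 0.999 and 12131 to 12825 genes reached 1 rescaled TPM per library. Short noncoding RNAs took 75.8% to 79.3% of deposited TPM in the PBRM1 experiment and 84.8% to 88.5% in the IRF1 experiment, and the ranges of control and silenced libraries overlapped in both. How many reads each library held cannot be read from TPM. The mean normalized counts in the authors' tables sum to 27111321 in the PBRM1 experiment and 63114292 in the IRF1 experiment. Of 18 leukocyte and erythroid, 10 endothelial and 9 adipocyte and fibroblast markers, 1 each (CD68, ROBO4 and FAP) passed the expression filter, and each of those 3 was lower with both hairpins.

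The targeted genes were examined first. PBRM1 (chr3:52545352-52685917, minus strand, GRCh38) was at 53.6, 51.7 and 53.9 TPM in its control libraries and at 13.3, 11.9 and 12.2 TPM in PBRM1shRNA libraries. In the IRF1 experiment PBRM1 was at 52.5, 50.7 and 46.3 TPM in control and 52.9, 56.5 and 54.9 TPM in IRF1shRNA libraries. PBRM1 fell with its own hairpin (log2 fold -2.01 ± 0.05, SE) and was slightly higher with the IRF1 hairpin (0.13 ± 0.05, limma adjusted p = 0.035). The study, from PCR of transcripts and immunoblots in this line, reported instead that PBRM1 expression needs IRF1. The reason for this unlike direction was not tested.

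IRF1 (chr5:132481609-132490798, minus strand) fell by nearly the same factor with either hairpin. It was at 109 TPM in each of the 3 control libraries of the PBRM1 experiment and at 33.6, 31.8 and 29.2 TPM after PBRM1 silencing. In the IRF1 experiment it was at 34.3, 35.4 and 37.4 TPM in control and 8.94, 9.51 and 10.2 TPM in IRF1shRNA cells. The log2 folds were -1.76 ± 0.06 and -1.80 ± 0.06, and their difference of 0.04 ± 0.08 did not pass the test (limma adjusted p = 0.686). When libraries were scaled to a common median ratio within each table the difference was 0.28 (adjusted p = 0.0049), the IRF1 fold being the more negative. The level of IRF1 left after PBRM1 silencing was close to the control level of the other experiment, although levels of the 2 tables were normalized separately.

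More genes were called lower after PBRM1 silencing than after IRF1 silencing. A gene was called when the adjusted p was under 0.05 and the absolute log2 value above 1. With the PBRM1 hairpin 766 genes were called lower (6.26% of those tested) and 108 higher (0.883%), and with the IRF1 hairpin 319 were called lower (2.61%) and 67 higher (0.548%). The difference of effects was called negative, the PBRM1 fold being lower, for 892 genes (7.29%) and positive for 301 (2.46%). The median over all genes was -0.15 for the PBRM1 fold, 0.03 for the IRF1 fold and -0.20 for the difference. This split depends on scaling. Negative differences were 74.8% of the calls, against 47.5% after median-ratio scaling, 49.7% after quantile scaling and 43.3% with TPM as deposited, and those scalings moved the median difference to 0.03, 0.00 and 0.03. The genes named next kept the sign of their difference under all 3 scalings wherever they passed the filter, except IRF1 and TRIM14, unless stated.

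**Figure D1:**
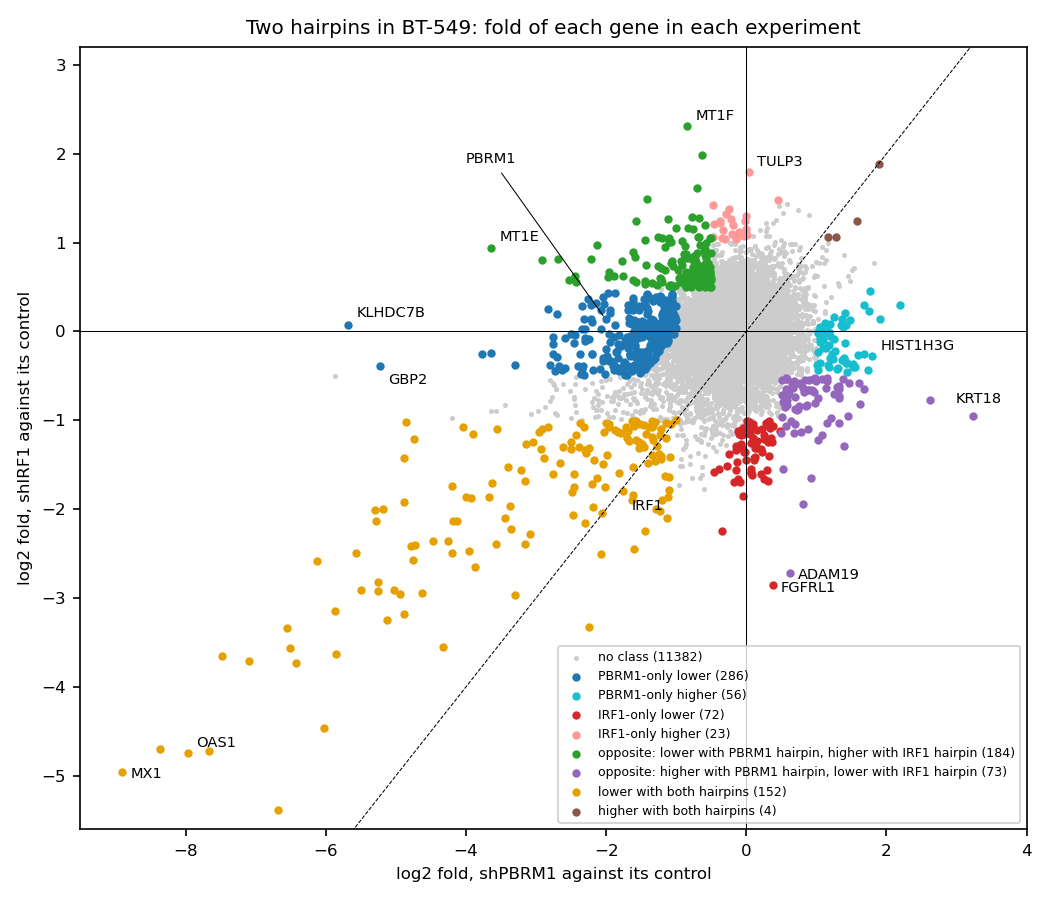
Each point is 1 of the 12232 genes tested, at its log2 fold after PBRM1 silencing (x axis) and after IRF1 silencing (y axis), colored by class, and the dashed line marks equal folds. Genes lower with both hairpins, such as MX1 at -8.91 and -4.95, lie mostly above the dashed line, while KLHDC7B, FGFRL1, KRT18 and MT1E lie near or across the axes.

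Genes were placed in classes by fixed bounds. A PBRM1-only gene had a called PBRM1 fold and a called difference, with an IRF1 fold under 0.5 whose 95% interval stayed within 1 of 0, and IRF1-only genes were defined in the same way with the hairpins exchanged. An opposite gene passed the test in both experiments with folds over 0.5 of unlike sign and a called difference. There were 286 PBRM1-only lower genes (2.34%), 56 PBRM1-only higher genes (0.458%), 72 IRF1-only lower genes (0.589%) and 23 IRF1-only higher genes (0.188%). A further 184 genes (1.5%) were lower with the PBRM1 hairpin and higher with the IRF1 hairpin, and 73 (0.597%) had the reverse pattern. The same direction was called in both experiments for 152 lower genes (1.24%) and 4 higher genes (0.0327%), which were LINC00641, RFLNB, NCEH1 and TNFRSF10D. The 152 shared genes were 19.8% of the PBRM1 decreases and 47.6% of the IRF1 decreases. The PBRM1-only lower class held 183 genes after median-ratio scaling, 166 after quantile scaling and 81 with TPM as deposited, of which 181, 164 and 70 were among the 286. Because these folds define the classes, members are described by their values and not by a p. The names PBRM1-only and IRF1-only do not mean that the other hairpin had no effect. In the IRF1 experiment groups did not overlap for 162 PBRM1-only lower (56.6%) and 35 PBRM1-only higher genes (62.5%), beside 68.8% of all genes. In the PBRM1 experiment groups did not overlap for 42 IRF1-only lower (58.3%) and 14 IRF1-only higher genes (60.9%), beside 75.1% of all genes. Some members reached 1 TPM in 1 of the groups of their own experiment and in no library of the other, so that they passed the filter through the group in which they were high: 31 of the PBRM1-only lower genes (PTGFRN and UNC5B among them), 1 PBRM1-only higher, 3 IRF1-only lower and 2 IRF1-only higher genes. Such members were not counted for the opposite and shared classes.

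Members near the bounds differed little from genes left out. SLC30A1 was PBRM1-only lower with a fold of -1.003 and TEX45 was left out at -0.998. SLCO2A1 was IRF1-only lower at -1.01 and MLLT11 was left out at -0.99.

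Antiviral genes fell with both hairpins, with larger falls after PBRM1 silencing, and 47 members of the type I IFN-stimulated list were among the 152 shared decreases. For gene lists, members were counted as lower or higher at an adjusted p under 0.05 whatever the fold. Over all genes this held for 50.7% lower and 22.9% higher with the PBRM1 hairpin, 30.0% lower and 35.0% higher with the IRF1 hairpin, and 48.7% negative and 21.8% positive differences. All 63 type I IFN-stimulated genes tested were lower with the PBRM1 hairpin (median log2 fold -3.68) and 60 were lower and 1 higher with the IRF1 hairpin (median -1.96). The difference was negative past the test in 61 and positive in 1, with a median of -1.71, beside -0.20 over all genes. The 1 with a larger fall after IRF1 silencing was TRIM14, a mitochondrial signaling adaptor named after its value was seen (difference 0.44 ± 0.08, and -0.08 with TPM as deposited). The control level of the PBRM1 experiment was higher for all 63 type I genes. Their median log2 ratio of controls was 1.70 and that of silenced groups was -0.10. The part of these unequal controls in the difference was not tested.

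MX1 (chr21:41420304-41459214, plus strand), a GTPase that blocks virus replication, was at 1108, 1110 and 1121 TPM in control and 1.62, 1.44 and 0.946 TPM in PBRM1shRNA libraries. In the IRF1 experiment MX1 was at 144, 177 and 203 TPM in control and 3.49, 4.9 and 5.69 TPM in IRF1shRNA libraries. Neither pair of groups overlapped, which held for 75.1% of all genes in the PBRM1 and 68.8% in the IRF1 experiment. The difference of the log2 folds of -8.91 and -4.95 was -3.96 ± 0.19 (limma adjusted p = 1.9e-11). OAS1, which makes the second messenger that activates RNase L, had folds of -7.97 and -4.74, and OAS2, of the same enzyme family, had folds of -8.36 and -4.70. Folds are on the log2(TPM + 1) scale, which understates falls that end under 1 TPM, as for OAS1 at 0.141, 0.105 and 0.0322 TPM after PBRM1 silencing.

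The IFN effectors followed by the study fell further with the PBRM1 hairpin than with the IRF1 hairpin. IDO1, which degrades tryptophan, had folds of -5.29 and -2.01 (difference -3.28 ± 0.20, limma adjusted p = 3.2e-10). WARS, the tryptophanyl-tRNA synthetase, had folds of -1.56 and -0.55 (difference -1.01 ± 0.06). The RNA sensors DDX58 (RIG-I) and IFIH1 (MDA5) had differences of -1.90 ± 0.10 and -1.98 ± 0.16, and the ubiquitin-like ISG15 of -1.68 ± 0.13. MUC1 fell with the PBRM1 hairpin (fold -0.64 ± 0.06), and its fold with the IRF1 hairpin was 0.02 ± 0.06 (limma adjusted p of the difference 2.9e-06). The study followed these genes in these cells, so their direction is not independent evidence.

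Promoter sequence of 3 genes lower with both hairpins is shown because they carry the ISRE core, the letters to which IRF proteins are known to bind. Capitals mark every match to GAAA, any 2 bases and GAAA, on either strand, and each run gives the 250 bases before the RefSeq start site, in the direction of transcription (GRCh38.p14).
ISG15, chr1:1013247-1013496, plus strand: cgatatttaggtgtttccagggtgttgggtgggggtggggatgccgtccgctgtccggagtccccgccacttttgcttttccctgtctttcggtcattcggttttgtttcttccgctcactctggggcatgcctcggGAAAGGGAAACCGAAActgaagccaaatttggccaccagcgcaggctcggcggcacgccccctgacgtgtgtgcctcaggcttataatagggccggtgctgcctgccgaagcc
IFIH1, chr2:162318685-162318934, minus strand: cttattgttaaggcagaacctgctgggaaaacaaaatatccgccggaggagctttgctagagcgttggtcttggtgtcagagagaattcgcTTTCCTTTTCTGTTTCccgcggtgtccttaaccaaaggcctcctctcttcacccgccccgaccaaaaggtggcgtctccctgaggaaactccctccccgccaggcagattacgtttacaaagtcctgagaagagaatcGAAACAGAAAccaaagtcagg
BST2, chr19:17405631-17405880, minus strand: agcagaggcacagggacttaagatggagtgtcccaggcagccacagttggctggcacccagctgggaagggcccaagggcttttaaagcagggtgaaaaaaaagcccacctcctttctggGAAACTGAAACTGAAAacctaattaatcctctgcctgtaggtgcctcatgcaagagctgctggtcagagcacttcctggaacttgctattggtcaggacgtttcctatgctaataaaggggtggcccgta
ISG15 held 2 overlapping cores and BST2, the virion-tethering protein tetherin, also 2, while IFIH1 held 3, of which the nearest began 21 bases before the start site. BST2, shown after its values were seen, fell from 693 to 715 TPM in control to 2.39 to 2.53 TPM after PBRM1 silencing, and from 93.9 to 136 TPM to 2.68 to 3.62 TPM after IRF1 silencing.

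The share of promoters with the ISRE core was higher among shared decreases than over all genes tested. RefSeq promoters (250 bases before to 50 after the start site) could be matched for 9768 of the 12232 genes tested, and 264 of them (2.70%) held the core. It was present in 38 of 107 promoters of genes lower with both hairpins (35.5%) and in 30 of 49 of the type I IFN-stimulated list (61.2%). It was present in 5 of 215 promoters of PBRM1-only lower genes (2.33%) and in 3 of 46 of PBRM1-only higher genes (6.52%). It was present in 1 of 53 promoters of IRF1-only lower genes (1.89%) and in 0 of 19 of IRF1-only higher genes. In the opposite classes it was present in 4 of 127 promoters of genes lower with the PBRM1 hairpin (3.15%) and in 2 of 56 of genes higher with it (3.57%). Over all 35116 RefSeq promoters the share was 3.57%. The core was searched on both strands and neighbouring matches can share bases, and a match in these letters does not mark a bound site.

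Promoter sequence of 3 genes from the single-hairpin and opposite classes (KLHDC7B, FGFRL1 and KRT8) is shown in the same form. They were chosen after their values were seen. No core was present in these bases, which does not set the genes apart, since 2.7% of promoters of all genes tested held one. One RefSeq start site per gene was used, and the FGFRL1 and KRT8 windows lie inside the annotated loci of these genes.
KLHDC7B, chr22:50545649-50545898, plus strand: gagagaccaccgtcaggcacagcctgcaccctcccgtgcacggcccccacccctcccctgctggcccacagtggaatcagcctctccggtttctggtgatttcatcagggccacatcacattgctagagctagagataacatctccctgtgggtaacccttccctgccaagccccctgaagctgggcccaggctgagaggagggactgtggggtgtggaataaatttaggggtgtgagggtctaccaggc
FGFRL1, chr4:1012214-1012463, plus strand: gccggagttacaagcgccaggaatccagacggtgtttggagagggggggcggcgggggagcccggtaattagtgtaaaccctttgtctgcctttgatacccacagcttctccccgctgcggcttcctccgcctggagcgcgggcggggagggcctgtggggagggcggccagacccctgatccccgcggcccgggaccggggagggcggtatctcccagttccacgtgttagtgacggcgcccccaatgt
KRT8, chr12:52926470-52926719, minus strand: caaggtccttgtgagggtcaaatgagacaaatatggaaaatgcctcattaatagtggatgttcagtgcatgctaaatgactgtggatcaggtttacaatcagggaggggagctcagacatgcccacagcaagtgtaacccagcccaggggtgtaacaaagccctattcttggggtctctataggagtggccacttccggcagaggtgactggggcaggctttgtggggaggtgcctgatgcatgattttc

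**Figure D2:**
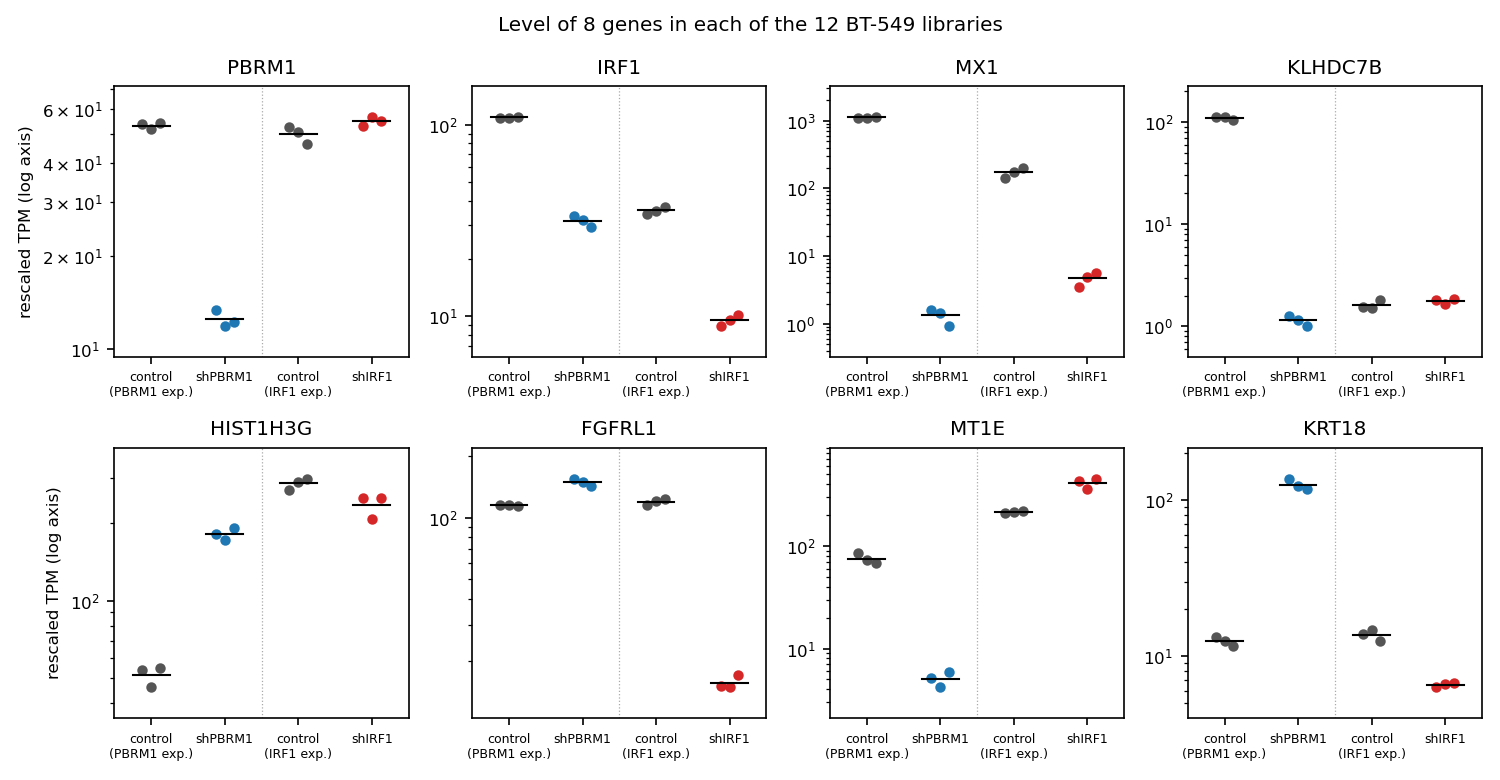
Rescaled TPM on a log axis for 8 genes in the 12 BT-549 libraries, with 1 dot per library and a line at the mean of each group of 3; the dotted line separates the experiments, whose tables were normalized separately. KLHDC7B stands high in the controls of the PBRM1 experiment alone, FGFRL1 is low in IRF1shRNA libraries alone, and KRT18 and MT1E move in opposite directions in the 2 experiments.

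Type II IFN and antigen presentation genes divided more finely. Of 21 IFN-gamma response genes, 18 had a negative and 1 a positive difference past the test (median -1.06), the positive one being SECTM1, a membrane protein that can be secreted, named after its value was seen, with folds of -0.07 and -1.31. GBP2 and GBP5 encode guanylate-binding proteins that attack pathogen vacuoles. GBP2 was at 133, 129 and 140 TPM in control and 2.78, 2.11 and 2.96 TPM in PBRM1shRNA libraries, against 6.01, 5.86 and 7.59 TPM and 4.24, 4.82 and 5.08 TPM in the IRF1 experiment. GBP2 was thus also lower in IRF1shRNA libraries, from a low control level that left less room to fall. GBP5 had folds of -4.20 and -0.98. The control level of the PBRM1 experiment was higher for 20 of the 21 IFN-gamma response genes. Their median log2 ratio of controls was 2.04 and that of silenced groups was 0.29. The part of these unequal controls in the difference was not tested.

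All 18 MHC class I and peptide-processing genes fell with the PBRM1 hairpin and 16 fell with the IRF1 hairpin. Their median folds of -1.47 and -1.26 were close, and the difference was negative in 12 and positive in 3 (median -0.38; -0.14 after median-ratio scaling with 8 negative). HLA-B, which presents peptides to T cells, had folds of -4.47 and -2.36, although the HLA genes are polymorphic and near-identical so that reads may be split among them. The 3 with a larger fall after IRF1 silencing were PSME1 and PSME2, the proteasome activator subunits, with differences of 0.69 ± 0.08 and 0.69 ± 0.05, and TAPBP, which loads peptides onto MHC class I, with 0.35 ± 0.07. These 3 were named after their values were seen, and the TAPBP difference did not pass the test with TPM as deposited. The control level of the PBRM1 experiment was higher for all 18 MHC class I and peptide-processing genes. Their median log2 ratio of controls was 1.19 and that of silenced groups was 0.89. The part of these unequal controls in the difference was not tested.

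Cytokine genes of the NF-kB program were mostly PBRM1-responsive. Of 23 tested, 18 fell and 2 rose with the PBRM1 hairpin, while 9 fell and 6 rose with the IRF1 hairpin, and the difference was negative in 18 and positive in 2 (median -0.60). The control level of the PBRM1 experiment was higher for all 23, with a median log2 ratio of controls of 1.48 and of silenced groups of 0.67. The part of these unequal controls in the difference was not tested. IL6 was at 466, 459 and 463 TPM in control and 26.5, 27.5 and 27.3 TPM in PBRM1shRNA libraries, against 30.9, 32.2 and 28.5 TPM and 12.9, 14.8 and 14.1 TPM in the IRF1 experiment. The monocyte chemoattractant CCL2 was PBRM1-only lower, from 37.2 to 41.0 TPM in control to 4.96 to 6.36 TPM (folds -2.59 and -0.07). CCL5, a T-cell chemoattractant, fell with both (-4.20 and -2.50). IL32, a proinflammatory cytokine, moved in opposite directions (-1.11 and 1.05).

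The 2 control groups were not at the same level for many of these genes. The log2 ratio of the mean control level in the PBRM1 experiment to that in the IRF1 experiment had a median of 0.15 over all genes, with the PBRM1 control higher for 60.4%. Among the 71 genes (0.58% of those tested) that fell with both hairpins and further with the PBRM1 hairpin the PBRM1 control was higher for 71, with a median log2 ratio of 2.23, while the silenced levels had a median ratio of -0.12. The median control level of those 71 genes was 98.3 TPM in the PBRM1 experiment and 22.5 TPM in the IRF1 experiment, and the median silenced levels were 2.55 and 3.30 TPM. For the PBRM1-only lower genes the control was higher in the PBRM1 experiment for 256 of 286 (89.5%), with a median log2 ratio of 1.02. For the PBRM1-only higher genes it was higher for 9 of 56, with a median log2 ratio of -1.13. The PBRM1 control was higher for 22 of 23 IRF1-only higher genes (median log2 ratio 0.62) and 29 of 72 IRF1-only lower genes (-0.15). It was higher for 155 of the 184 opposite genes lower with the PBRM1 hairpin (0.65) and 15 of the 73 higher with it (-0.71). Controls lay within 1 log2 unit of each other for 88.1% of all genes, for 47.6% of PBRM1-only lower and 37.5% of PBRM1-only higher genes, and for 79.2% of IRF1-only lower and 78.3% of IRF1-only higher genes. In the 2 opposite classes, in the same order, the shares were 65.2% and 61.6%. These ratios set separately normalized tables side by side, and the part of the unequal control levels in the differences was not tested.

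**Figure D3:**
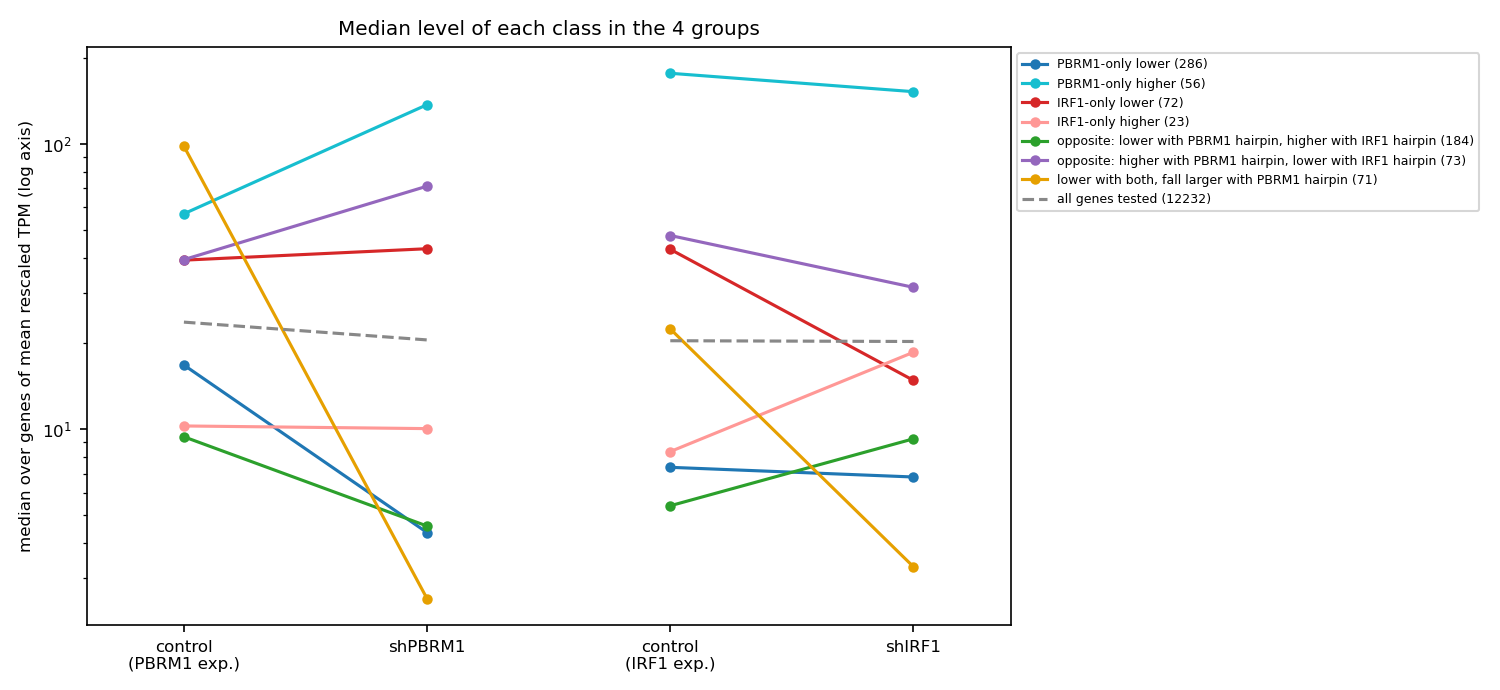
Median over the genes of each class of the mean rescaled TPM (log axis) in the 4 groups, with a line joining each control to its silenced group and the number of genes in parentheses. The genes lower with both hairpins and more so with PBRM1 start at 98.3 TPM in one control and 22.5 TPM in the other and end at 2.55 and 3.30 TPM.

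The 286 PBRM1-only lower genes had a median PBRM1 fold of -1.46 and a median IRF1 fold of -0.03. KLHDC7B (chr22:50545891-50551023, plus strand), a kelch-domain gene, had the largest difference, -5.76 ± 0.10. It was at 111, 111 and 105 TPM in control and 1.26, 1.15 and 1.02 TPM in PBRM1shRNA libraries, whereas in the IRF1 experiment it was at 1.54, 1.51 and 1.82 TPM in control and 1.81, 1.64 and 1.83 TPM in IRF1shRNA libraries. The first pair of groups was far apart and the second overlapped at a level near that of PBRM1shRNA cells. At 1.51 to 1.82 TPM in control, KLHDC7B had little room to fall in the IRF1 experiment on the log2(TPM + 1) scale. Its IRF1 fold near 0 therefore does not show that IRF1 silencing spared it. MX2, the antiviral relative of MX1 that acts on nuclear entry of retroviruses, fell outside the class bound with folds of -5.87 and -0.50.

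After KLHDC7B and GBP2, the class was led by HEY1, a transcriptional repressor induced by Notch. HEY1 went from 29.6, 26.2 and 28.2 TPM to 0.806, 1.49 and 1.13 TPM after PBRM1 silencing and was at 1.60, 1.77 and 1.06 TPM in control and 1.10, 1.03 and 1.05 TPM in IRF1shRNA cells. UNC5B, a netrin receptor, had folds of -3.29 and -0.37. RSPO3, a secreted amplifier of Wnt signaling, went from 39.4 to 40.3 TPM down to 5.11 to 5.43 TPM with the PBRM1 hairpin, and was at 1.41 to 1.67 TPM in control and 1.82 to 2.02 TPM in IRF1shRNA cells. HEY1 and RSPO3 also had little room to fall from their low control levels in the IRF1 experiment. APCDD1, a Wnt inhibitor at the cell membrane, had folds of -2.26 and 0.36.

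PTGFRN, a membrane partner of tetraspanins, had similar control levels in both experiments. It was at 8.10, 6.41 and 7.54 TPM in control and 0.170, 0.155 and 0.190 TPM in PBRM1shRNA libraries, and at 5.30, 5.66 and 5.66 TPM in control and 6.44, 6.81 and 7.07 TPM in IRF1shRNA libraries. CHI3L1, a secreted chitinase-like protein of inflamed tissue, had folds of -2.35 and 0.28, and FNDC1, a fibronectin-domain protein, of -2.75 and -0.06. The matrix gene COL6A3 (-2.30 and -0.11) and the immediate early transcription factor EGR1 (-2.33 and -0.39) were in the same class. ODF3B had folds of -3.64 and -0.24.

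Replication-dependent histones, which supply nucleosomes in S phase, were the most numerous list among the PBRM1-only higher genes. Of 53 histone genes tested, 48 rose and 1 fell with the PBRM1 hairpin (median log2 fold 1.25), and 3 rose and 38 fell with the IRF1 hairpin (median -0.37). The difference was positive past the test in 50 and negative in 2, with a median of 1.59, and at least 50 members were positive under each of the 3 other scalings. The control level of the PBRM1 experiment was higher for 0 of the 53 histone genes, with a median log2 ratio of controls of -2.0 and of silenced groups of -0.35, and the part of these unequal controls in the difference was not tested. The list supplied 27 of the 56 PBRM1-only higher genes and 18 of the 73 genes that were higher with the PBRM1 hairpin and lower with the IRF1 hairpin.

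HIST1H3G (chr6:26269405-26271815, minus strand), an H3 gene, was at 53.8, 46.2 and 54.6 TPM in control and 181, 172 and 191 TPM in PBRM1shRNA libraries. In the IRF1 experiment it was at 270, 288 and 297 TPM in control and 249, 207 and 251 TPM in IRF1shRNA libraries, so that the control of that experiment stood above the PBRM1shRNA group. The linker histone HIST1H1B rose from 651 to 753 TPM to 1683 to 1999 TPM with the PBRM1 hairpin and fell from 1357 to 1414 TPM to 1040 to 1115 TPM with the IRF1 hairpin. HIST1H2AG had folds of 1.52 and -0.37, and HIST1H2BM of 0.52 and -1.54.

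Histone genes are near-identical copies whose reads may be split among them, and most of their transcripts lack the poly(A) tail that the library kit selects. Among the RNAs removed before scaling, 7SL RNAs took 13.5% to 18.8% of deposited TPM in the PBRM1 experiment and 69.2% to 74.8% in the IRF1 experiment, and small nucleolar and Cajal body RNAs 24.7% to 30.6% and 0.14% to 0.18%. The part of this difference in library content in the histone values was not tested.

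Most genes of the mitotic list rose with the PBRM1 hairpin by smaller folds, and 0 members of that list passed the fold bound with either hairpin. Mitotic genes outside the list were not counted here. Of 41 tested, 39 rose and 2 fell with the PBRM1 hairpin (median 0.58), and 9 rose and 19 fell with the IRF1 hairpin (median -0.10). The difference was positive in 36 and negative in 2 (median 0.78). CDK1, the kinase that drives entry into mitosis, rose from 57.7 to 59.5 TPM to 83.5 to 90.5 TPM with the PBRM1 hairpin and fell from 94.1 to 110 TPM to 63.9 to 67.1 TPM with the IRF1 hairpin. CCNA2, cyclin A2, had folds of 0.96 and -0.29, and SPC24, a kinetochore subunit, of 0.73 and -0.88. Of 41 DNA replication and S-phase genes the difference was positive in 30 and negative in 6 (median 0.44). The control level of the PBRM1 experiment was higher for 1 of the 41 mitotic and 3 of the 41 replication genes. Median log2 ratios of controls were -0.63 and -0.61, and those of silenced groups were 0.00 and -0.14. The part of these unequal controls in the differences was not tested.

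**Figure D4:**
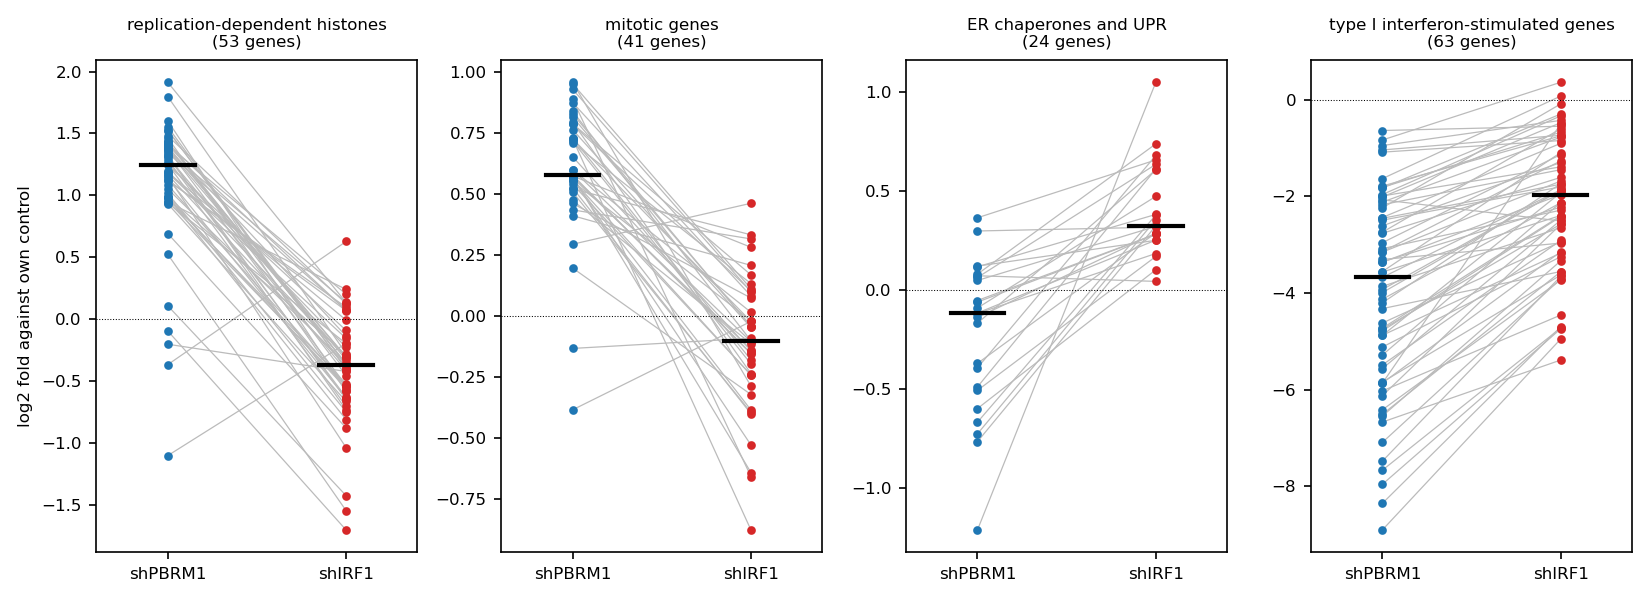
Log2 fold of each tested member of 4 gene lists after PBRM1 silencing and after IRF1 silencing, each against its own control, with a line joining the 2 values of a gene and a black bar at the median. Histone medians are 1.25 and -0.37, mitotic gene medians 0.58 and -0.10, ER chaperone medians -0.12 and 0.32, and IFN-stimulated gene medians -3.68 and -1.96; the vertical scales differ.

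The largest difference among PBRM1-only higher genes was that of ADAMTS12, a secreted metalloprotease (2.16 ± 0.08). ADAMTS12 was at 10.7, 9.70 and 10.8 TPM in control and 38.8, 35.2 and 36.4 TPM in PBRM1shRNA libraries, against 10.2, 10.3 and 9.42 TPM and 6.97, 7.34 and 7.10 TPM in the IRF1 experiment. SORT1, the sorting receptor sortilin, was at 8.16, 7.06 and 7.61 TPM in control and 40.0, 36.7 and 37.8 TPM in PBRM1shRNA libraries (folds 2.19 and 0.30). POSTN, the matrix protein periostin, had folds of 1.60 and -0.27, and CD83, a surface glycoprotein of activated dendritic cells, of 1.69 and -0.26.

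The 72 IRF1-only lower genes had a median IRF1 fold of -1.25 and a median PBRM1 fold of 0.06. FGFRL1 (chr4:1009936-1026897, plus strand), an FGF receptor that lacks the kinase domain, had the largest difference, 3.23 ± 0.07. It was at 116, 121 and 123 TPM in control and 15.1, 14.9 and 17 TPM in IRF1shRNA libraries, whereas with the PBRM1 hairpin it was at 115, 115 and 114 TPM in control and 155, 150 and 143 TPM in silenced libraries. With median-ratio scaling the PBRM1 fold of FGFRL1 reached 0.57, which placed the gene in the opposite class. CCND1, cyclin D1, which drives the G1 phase, fell from 52.2, 54.3 and 45 TPM to 10.6, 9.55 and 9.51 TPM with the IRF1 hairpin and from 38.1, 38.2 and 40.0 TPM to 30.8, 30.9 and 29.3 TPM with the PBRM1 hairpin.

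S100A10 and ANXA2, which form one complex at the plasma membrane, were both IRF1-only lower. S100A10 fell from 910, 954 and 929 TPM to 310, 293 and 310 TPM with the IRF1 hairpin and was at 540, 546 and 564 TPM in control and 636, 627 and 639 TPM in PBRM1shRNA cells. ANXA2 (annexin A2), named after its value was seen, fell from 1165, 1189 and 1172 TPM to 372, 408 and 399 TPM with the IRF1 hairpin, while its groups overlapped in the PBRM1 experiment (989, 1045 and 1031 TPM against 1067, 1043 and 1105 TPM). ANXA2 has processed pseudogenes that can share its reads. Of 7 annexin genes tested, ANXA2 was the one in this class. A fall was not particular to it, since 6 of the 7 fell and 0 rose with the IRF1 hairpin at an adjusted p under 0.05. With the PBRM1 hairpin 5 fell and 0 rose. Over all genes 30.0% fell with the IRF1 and 50.7% with the PBRM1 hairpin.

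Further members were ADPGK, an ADP-dependent glucokinase (folds 0.30 with the PBRM1 and -1.56 with the IRF1 hairpin), THSD4, a matrix protein of microfibrils (-0.05 and -1.85), KRT7, a simple-epithelium keratin (-0.18 and -1.70), and EBP, a sterol isomerase (0.48 and -1.12). SMIM3 (0.25 and -1.66) and ABRACL (0.08 and -1.61) were also among the leading members. HIST3H2BB, a histone outside the main clusters, was IRF1-only lower (0.31 and -1.68). EBP was in the opposite class under each of the other scalings.

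IRF1-only higher genes numbered 23. LINC00603, a long noncoding RNA, was at 0.355, 0.231 and 0 TPM in control and 1.83, 1.58 and 3.35 TPM in IRF1shRNA libraries, while its groups overlapped in the PBRM1 experiment at 4.55 to 11.7 TPM. LINC00603 reached 1 TPM in 0 control libraries of the IRF1 experiment, so it passed the expression filter there through the group in which it was high. TULP3, which delivers membrane proteins to the primary cilium, rose from 13.8, 13.2 and 12.9 TPM to 46.0, 52.2 and 47.5 TPM with the IRF1 hairpin, while its groups overlapped in the PBRM1 experiment (46.2, 43.0 and 45.2 TPM against 47.6, 46.6 and 43.7 TPM). UBE2D4, a ubiquitin-conjugating enzyme, had folds of -0.24 and 1.38, SECISBP2, needed to insert selenocysteine, of -0.38 and 1.21, and MAP7D2, a microtubule-binding protein, of -0.22 and 1.26. IL17D, a cytokine, had folds of -0.34 and 1.15 at 0.754 to 3.61 TPM. With TPM as deposited 1 gene was in this class, and it was among these 23.

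Metallothioneins, which bind zinc and copper, led the genes that were lower with the PBRM1 hairpin and higher with the IRF1 hairpin. MT1E (chr16:56625475-56627112, plus strand) was at 84.8, 72.2 and 67.4 TPM in control and 5.17, 4.21 and 5.88 TPM in PBRM1shRNA libraries. In the IRF1 experiment MT1E was at 210, 212 and 218 TPM in control and 427, 359 and 450 TPM in IRF1shRNA libraries, and neither pair of groups overlapped. The difference was -4.58 ± 0.14. MT1X had folds of -1.62 and 0.89 and MT1F of -0.84 and 2.31. Of 8 metallothionein and zinc-sensing genes, 6 fell and 1 rose with the PBRM1 hairpin, 1 fell and 5 rose with the IRF1 hairpin, and the difference was negative in 5 and positive in 1 (median -0.96). Metallothioneins are near-identical paralogs, so single members are uncertain.

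The 184 genes of this class had a median PBRM1 fold of -0.72 and a median IRF1 fold of 0.65. MME, the surface peptidase neprilysin, was at 52.0, 53.3 and 52.9 TPM in control and 7.44, 7.63 and 6.95 TPM in PBRM1shRNA libraries, against 5.49, 5.15 and 5.75 TPM and 9.27, 10.8 and 11.2 TPM in the IRF1 experiment. PAPPA2, a protease of insulin-like growth factor binding proteins, had folds of -2.13 and 0.97 and MYLK, myosin light chain kinase, of -2.53 and 0.58. HMOX1, the heme-degrading enzyme, fell from 243 to 258 TPM to 115 to 120 TPM with the PBRM1 hairpin and rose from 99.5 to 109 TPM to 199 to 217 TPM with the IRF1 hairpin.

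Chaperones of the endoplasmic reticulum (ER), which fold secreted and membrane proteins, also diverged. Of 24 ER chaperone and unfolded protein response genes, 23 rose and 0 fell with the IRF1 hairpin (median 0.32), while 14 fell and 4 rose with the PBRM1 hairpin (median -0.12). The difference was negative past the test in 21 and positive in 0 (median -0.57), although the PBRM1 median was 0.08, with 10 higher and 9 lower, after median-ratio scaling. The control level of the PBRM1 experiment was higher for 20 of the 24, with a median log2 ratio of controls of 0.95 and of silenced groups of 0.24. The part of these unequal controls in the difference was not tested. HERPUD1, which acts in ER-associated degradation, was at 201, 201 and 199 TPM in control and 87.0, 86.5 and 84.6 TPM in PBRM1shRNA libraries, and at 72.3, 65.3 and 67.0 TPM in control and 141, 143 and 142 TPM in IRF1shRNA libraries. The chaperones HYOU1 (-0.49 and 0.61) and HSP90B1 (-0.73 and 0.36) had smaller folds. All 7 golgins tested, coiled-coil tethers of Golgi membranes counted as a family after their values were seen, fell with the PBRM1 hairpin and 6 rose with the IRF1 hairpin, and 5 of them were in the opposite class. GOLGA4 had folds of -0.79 and 0.54, and left the class after median-ratio scaling and with TPM as deposited.

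The simple-epithelium keratins KRT18 and KRT8, which pair in one filament, led the genes higher with the PBRM1 hairpin and lower with the IRF1 hairpin. KRT18 (chr12:52948871-52952901, plus strand) was at 13.3, 12.5 and 11.7 TPM in control and 137, 123 and 118 TPM in PBRM1shRNA libraries, and at 13.8, 14.7 and 12.4 TPM in control and 6.34, 6.64 and 6.70 TPM in IRF1shRNA libraries. The control groups were at nearly the same level and the difference was 4.18 ± 0.09. KRT8 was at 3.19, 3.55 and 3.73 TPM in control and 27.0, 27.1 and 25.8 TPM in PBRM1shRNA libraries, and at 1.28, 1.53 and 1.42 TPM in control and 0.486, 0.253 and 0.509 TPM in IRF1shRNA libraries. In the IRF1 experiment KRT8 reached 1 TPM in control libraries only, so it passed the filter there through the group in which it was high. The annotated KRT8 locus (chr12:52897187-52949954, minus strand) overlaps that of KRT18, and whether the counting used strand is not given in the sources used here, so their values may not be independent. Of 17 keratin and epithelial genes, 4 rose and 11 fell with the PBRM1 hairpin and 2 rose and 13 fell with the IRF1 hairpin, so most of the list did not share the pattern of this pair.

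ADAM19, a membrane sheddase, had a small rise with the PBRM1 hairpin, from 17 to 17.4 TPM to 27.0 to 27.3 TPM, and fell from 30.4 to 33.7 TPM to 3.88 to 4.43 TPM with the IRF1 hairpin. CENPW, a centromere protein, had folds of 0.81 and -1.94. HTR1B, a serotonin receptor, was at 10.9, 9.65 and 9.77 TPM in control and 29.2, 28.1 and 27.8 TPM in PBRM1shRNA libraries, and at 15.5, 15.9 and 15.4 TPM in control and 5.56, 5.70 and 6.12 TPM in IRF1shRNA libraries. APLN, the secreted peptide apelin, had folds of 1.62 and -0.81.

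The 1 gene among the 152 shared decreases with a called larger fall after IRF1 silencing was IGFBP6 (0.00818% of genes tested), a binding protein of insulin-like growth factor 2, with folds of -2.25 and -3.33, named after its value was seen. Leaving out control replicate 3 of the IRF1 experiment left 0 such genes, and leaving out control replicate 2 or IRF1shRNA replicate 3 of that experiment or PBRM1shRNA replicate 2 gave 2.

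The balance of several other lists moved with scaling. Of 22 nucleic acid sensors and IFN signaling genes, 4 had a positive and 13 a negative difference (median -0.44), and 7 and 12 after median-ratio scaling (median -0.20). Of 32 hypoxia and glycolysis genes 14 were positive and 12 negative (median 0.02), and 18 and 6 after median-ratio scaling (median 0.27). Of 28 cholesterol synthesis and uptake genes, 16 had a positive and 4 a negative difference (median 0.26), and 22 and 1 after median-ratio scaling (median 0.50). Of 60 respiratory chain and ATP synthase genes 30 were positive and 7 negative (median 0.17), and 50 and 3 after median-ratio scaling (median 0.42). Of 28 ATF4 stress targets 8 were positive and 17 negative (median -0.30), and 10 and 13 after median-ratio scaling (median -0.06). Of 23 SWI/SNF subunits 5 had a positive and 10 a negative difference (median -0.08), and this balance turned positive under all 3 other scalings. Of 43 collagen, matrix and mesenchymal genes 17 were positive and 21 negative, a balance that also turned with median-ratio scaling. Of 79 cytosolic ribosomal protein genes 67 rose with the PBRM1 and 65 with the IRF1 hairpin, and 20 differences were positive and 4 negative (median 0.08). These were 65 and 1 after median-ratio scaling (median 0.32) and 16 and 22 after quantile scaling (median -0.01). With TPM as deposited they were 20 and 0 (median 0.28), and 1 of the 77 ribosomal protein genes tested rose with the IRF1 hairpin.

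**Figure D5:**
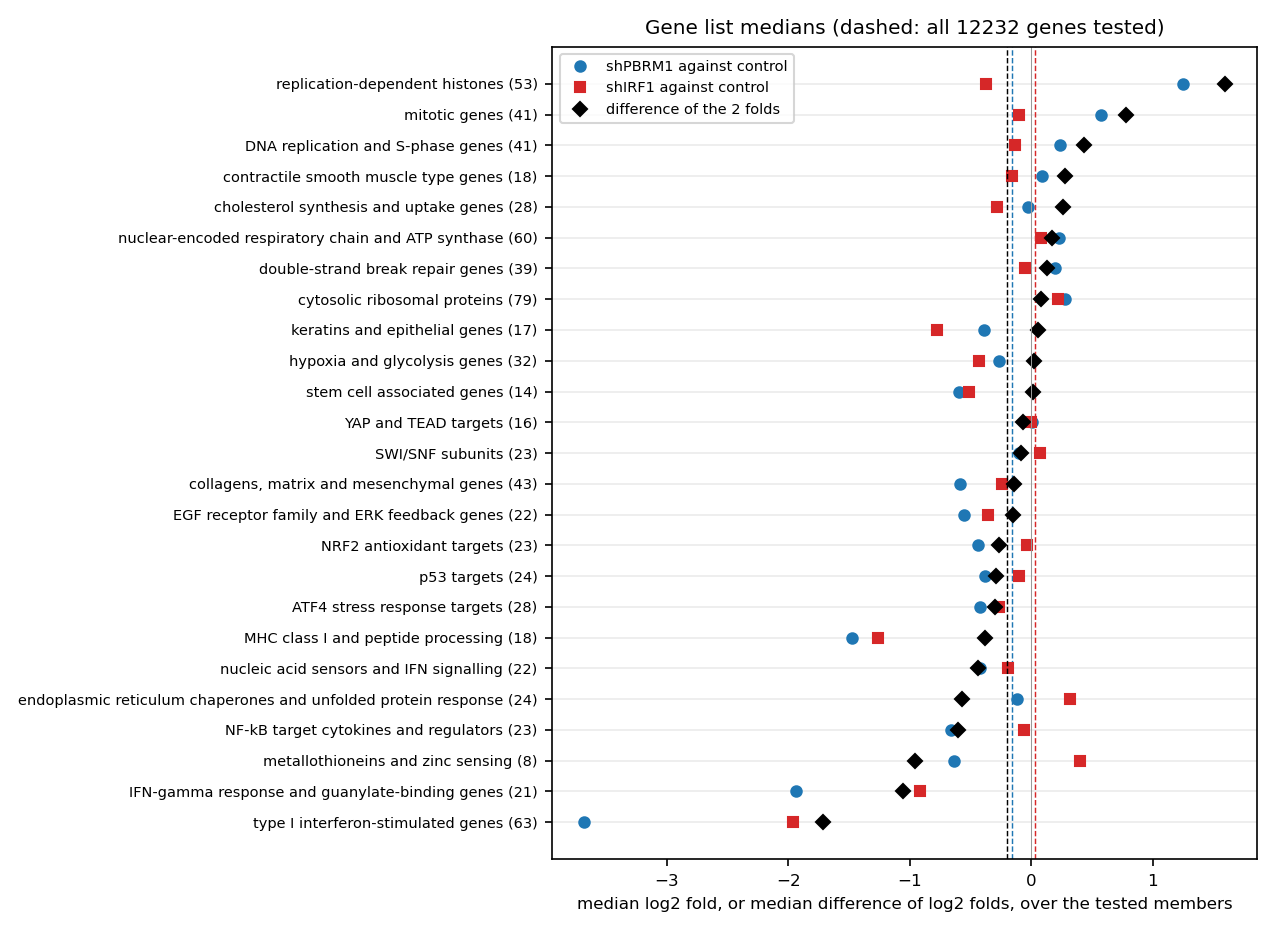
Median log2 fold after PBRM1 silencing (circles) and after IRF1 silencing (squares), and median difference of the folds (diamonds), for each gene list with at least 5 tested members, whose number is in parentheses; dashed lines mark the medians of all 12232 genes. Type I IFN-stimulated genes lie at one end with a median difference of -1.71 and histones at the other with 1.59.

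A further readout came from another TNBC line, MDA-MB-436, carrying an inducible MUC1 shRNA, compared between doxycycline and vehicle (3 libraries each). Doxycycline and MUC1 silencing cannot be told apart there. Of 11551 genes tested in all 3 tables, 25.5% fell and 27.1% rose in that line (limma adjusted p under 0.05). Among PBRM1-only higher genes 30 of 50 fell (60.0%) and 6 rose, and among the genes higher with the PBRM1 and lower with the IRF1 hairpin 35 of 67 fell (52.2%) and 18 rose. Replication-dependent histones, near-identical copies whose reads may be split among them, made up 27 of the 56 and 18 of the 73 genes of these classes. Members are therefore not independent, and the shares without histones were not computed. Among PBRM1-only lower genes 76 of 234 fell (32.5%) and 64 rose (27.4%), and among IRF1-only lower genes 22 of 62 fell (35.5%) and 25 rose (40.3%). Among IRF1-only higher genes 4 of 20 fell and 6 rose. Of the genes lower with the PBRM1 and higher with the IRF1 hairpin 33 of 155 fell (21.3%) and 48 rose (31.0%), and of the shared decreases 31 of 110 fell and 31 rose (28.2% each).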

How the data were processed

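RNA was sequenced from 18 libraries in 6 groups, of which the 12 BT-549 libraries entered the comparison and 6 MDA-MB-436 libraries served as a further readout. The authors deposited TPM per gene and library, each column summing to 1e+06, and tables of their own comparisons. From the latter only the mean normalized count (the deposited size-factor-scaled signal) was used, and the fold changes and p-values were not used. The submitters' processing notes name STAR, GRCh38 and DESeq2 without versions. For the annotation and the program behind TPM, the sources used here name none. Columns were matched to groups by their names, except that the 3 control columns of the PBRM1 table carry no hairpin name and could be assigned to their group but not to single samples.

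Short noncoding RNAs (241 symbols in the PBRM1 table and 161 in the IRF1 table) were removed, TPM was rescaled to 1e+06 and genes with at least 1 TPM in at least 3 columns of both tables were kept. Limma 3.58.1 (R 4.3.3) was fitted to log2(TPM + 1) with 4 group means, 1 quality weight per table and a variance trend, and p-values are two-sided with Benjamini-Hochberg adjustment over all genes tested. Values after ± in the text are standard errors of log2 folds, with 3 libraries per group. The script was tested on simulated data. TPM keeps no depth, so counting error is unknown. No 2 columns held identical values.

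Genes named were PBRM1, IRF1, genes followed by the study, up to 10 of each class by size of the difference, the 4 largest and the smallest of each list, and the 10 largest and 5 smallest shared decreases; genes outside this rule are said to be chosen after their values were seen. A few genes that this rule names are not reported here. The members and lists were chosen with earlier results of these data known. Promoters came from RefSeq (GRCh38.p14). Scaling, pseudocount, filter, weights, variance model, replicate block and single libraries were varied.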

Additional observations from a re-analysis of the deposited data

How the results depend on the processing

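With TPM as deposited (9014 genes tested) there were 196 negative differences, 81 PBRM1-only lower, 42 IRF1-only lower and 1 IRF1-only higher gene, 14 genes lower with PBRM1 and higher with IRF1 silencing, 74 lower and 0 higher with both, 46 of them falling more with PBRM1 and 0 more with IRF1 silencing. After median-ratio scaling there were 533 negative and 589 positive differences, 183 PBRM1-only lower and 103 higher genes, 104 and 139 opposite genes, and 3 shared decreases larger with IRF1. After quantile scaling these were 516, 522, 166, 116, 88, 119 and 3, with 7 genes higher with both. A pseudocount of 0.1 gave 48 IRF1-only higher genes, 280 lower with PBRM1 and higher with IRF1, 240 lower and 8 higher with both, and 6 larger with IRF1. A mean of at least 5 TPM gave 526 negative differences, 163 PBRM1-only lower genes and 97 lower with PBRM1 and higher with IRF1. An adjusted p under 0.05 alone gave 5956 negative and 2665 positive differences, 4012 PBRM1-only lower and 1589 higher, 1486 IRF1-only lower and 2584 higher, 2150 lower and 1156 higher with both, 941 larger with PBRM1 and 346 larger with IRF1. Leaving out single libraries gave 860 to 933 negative and 288 to 316 positive differences, 277 to 305 PBRM1-only lower and 51 to 58 higher, 68 to 76 IRF1-only lower and 21 to 30 higher, 170 to 193 and 69 to 79 opposite, 146 to 157 lower and 2 to 5 higher with both (2 without IRF1 control replicate 3), 71 to 74 larger with PBRM1 and 0 to 2 larger with IRF1. The IRF1 difference was -0.18 with TPM as deposited and ranged from -0.00799 to 0.0893 when single libraries were left out (-0.00472 without IRF1shRNA replicate 1), and that of TRIM14 was -0.0801 as deposited. Negative members of the SWI/SNF list fell to 2 as deposited, 5 after median-ratio and 7 after quantile scaling; collagens had 19 and EGF receptor genes 8 negative members after median-ratio scaling, ribosomal proteins 16 positive members after quantile scaling, and keratins 11 positive members without a filter, each with the balance turned. The cause of these changes was not tested, except that fewer genes pass the filter in deposited TPM. Correlations of same-numbered deviations were 0.06 to 0.102 in the PBRM1 experiment, where other pairs had -0.076 to 0.01. In the IRF1 experiment they were -0.093 to 0.033, where other pairs had -0.16 to 0.198. With the replicate block, which joins same-numbered libraries only, 892 negative and 301 positive differences were called. Equal weights, separate fits, no trend and no moderation left every count of the classes within 1.5 times. Depth is unknown, each gene had 1 hairpin group, and control levels of the experiments differed, which limits how far a difference of folds compares the targeted genes.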
